A study of Mus musculus with 48 samples.

Results

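Expression of 9 genes known from the alveolar macrophage was followed across the lungs of 48 mice. The 9 genes, Chil3, Itgax, Mrc1, Msr1, Ear1, Ear2, Krt79, Atp6v0d2 and Ctsk, were chosen by symbol from a table of 47561 genes, and each symbol matched exactly 1 row. All 9 passed the filter on low values (3 or more mice with 1 FPKM or more), as did 16994 genes in all. FPKM counts fragments for each kilobase of a transcript, relative to the size of the library, and is thus divided by transcript length, so levels of different genes can be set side by side. The lungs came from adult C3H/HeN (C3H) and C57Bl/6 (C57B) mice of both sexes, both inbred strains. Each mouse received 1 intraperitoneal injection, either saline (SAL) or 25 mg/kg aurothioglucose (ATG, which contains gold and blocks thioredoxin reductase), and was then kept for 96 h in room air or in hyperoxia, above 95% oxygen. Every combination of strain, sex, injection and air held 3 mice, which gave 16 groups, and the labels name no transgene or deletion. The series description gives ATG to all mice and names the J substrain of C57B6, and the paper describes the baseline mice as unstimulated and of the N substrain, so the saline groups rest on the sample labels alone.

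The sum of FPKM was between 510933 and 748290 per lung. Scgb1a1, which encodes the main secreted protein of club cells, took 1.2% to 30.2% of that sum. For all 48 lungs, the library with the highest correlation was of the same strain and the same air, and the highest correlation between any pair of lungs was 0.979, so no lung appeared to be deposited more than once. Mice 1 and 3, both C3H males given saline in room air, stood apart on the third principal component (65.1 and 57.7, against -21 to 38.1 in the other 46), and their values for Rn18s-rs5, a ribosomal RNA repeat, were 25895 and 20766 FPKM against a median of 5709 and a highest value of 22813 in the others. Every comparison was also fitted without these mice, and for the 9 genes each result whose call changed without them is given both ways. Sftpc, the surfactant protein of alveolar type 2 cells, was above 0 in every lung, with a mean of 29970 FPKM ± 6375 (SD, n = 12) in saline room air.

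Alveolar macrophages live in the airspaces, where they clear surfactant, dust and dying cells. They settle around birth from fetal monocytes and are kept in their mature state by GM-CSF from the alveolar epithelium, by TGF-beta and by the nuclear receptor encoded by Pparg. When the lung is injured, monocytes from the blood enter the airspace and can take on parts of the same programme. Among the 9 genes, Msr1 and Mrc1 encode scavenger receptors for modified lipoproteins and for mannose-bearing ligands, and Itgax encodes the integrin CD11c. Chil3 encodes the secreted chitinase-like protein Ym1. Ear1 and Ear2 encode small secreted ribonucleases that were first named for eosinophils. Atp6v0d2 encodes a subunit of the proton pump of lysosomes and Ctsk the lysosomal protease cathepsin K, both also known from osteoclasts, and Krt79 encodes a keratin.

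Several of these genes have close relatives, which bears on how reads could have been divided between them. In GENCODE M21 (GRCm38, the assembly also called mm10), Ear1 lies on the minus strand at chr14:43818765-43875517 and Ear2 on the plus strand at chr14:44102654-44103534, and both are protein coding. Of the 30-base stretches of Ear1 transcripts, 74.6% also occurred in transcripts of other genes, with Ear-ps9 the most frequent partner, and the share was 62.2% for Ear2, with Ear1 the most frequent partner. For Chil3 (chr3:106147554-106167564, minus strand) the share was 42.5%, mostly with Chil4, and for Itgax (chr7:128129547-128150657, plus strand) it was 10.9%, shared with Itgad. It was at most 0.447% for Mrc1 (chr2:14229392-14332057, plus strand), Msr1 (chr8:39581685-39642673, minus strand), Krt79 (chr15:101929332-101940324, minus strand), Atp6v0d2 (chr4:19876841-19922605, minus strand) and Ctsk (chr3:95499256-95509362, plus strand). For stretches of 100 bases the shares were lower, 23.9% for Ear1 (mostly with Ear-ps9), 13.9% for Ear2 (with Ear10), 4.93% for Chil3 and 3.05% for Itgax, with 0% for the other 5 genes, and no such stretch was common to Ear1 and Ear2. Values of Ear1 and Ear2, and to a lesser degree of Chil3, are thus uncertain to the extent that fragments fell within shared stretches.

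The opening of the coding sequence shows how alike Ear1 and Ear2 are. The first 150 coding bases, which lie in 1 exon of each gene, are printed from the GENCODE M21 transcripts with the 5 bases that differ in capitals, Ear1 from chr14:43819260-43819409 (minus strand) and Ear2 from chr14:44102887-44103036 (plus strand).
Ear1: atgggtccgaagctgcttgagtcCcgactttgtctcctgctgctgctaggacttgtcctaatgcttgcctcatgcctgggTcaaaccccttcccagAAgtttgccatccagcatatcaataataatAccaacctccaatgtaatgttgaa
Ear2: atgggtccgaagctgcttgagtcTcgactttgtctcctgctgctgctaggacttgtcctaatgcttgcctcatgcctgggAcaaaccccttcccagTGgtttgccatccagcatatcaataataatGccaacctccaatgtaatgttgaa
From start to stop codon, 449 of 471 aligned positions were identical (95.3%).

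The promoter windows are as close. The windows from 250 bases before to 50 after the start are shown because both genes fell in hyperoxia. They are from RefSeq on GRCm38.p6, at chr14:43819590-43819889 (minus strand) for Ear1 and chr14:44102404-44102703 (plus strand) for Ear2. In GENCODE M21 the Ear1 gene begins further upstream, so the Ear1 window lies inside that gene. The Ear2 window spans the GENCODE start of Ear2. Bases that have no identical partner in the other window are in capitals.
Ear1: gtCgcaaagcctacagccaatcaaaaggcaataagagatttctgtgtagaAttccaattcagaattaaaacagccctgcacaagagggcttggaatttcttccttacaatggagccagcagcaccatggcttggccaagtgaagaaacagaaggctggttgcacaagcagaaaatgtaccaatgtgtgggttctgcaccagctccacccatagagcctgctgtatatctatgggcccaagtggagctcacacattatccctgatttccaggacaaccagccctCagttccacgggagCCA
Ear2: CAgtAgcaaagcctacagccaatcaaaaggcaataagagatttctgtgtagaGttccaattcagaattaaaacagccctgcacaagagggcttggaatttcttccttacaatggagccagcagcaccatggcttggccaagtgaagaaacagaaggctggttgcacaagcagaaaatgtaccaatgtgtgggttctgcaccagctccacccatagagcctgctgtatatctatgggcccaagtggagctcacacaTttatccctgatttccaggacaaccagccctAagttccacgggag
The aligned windows were identical at 294 of 303 positions (97%). The promoter of Ctsk, which among the 9 genes had the largest rise in hyperoxia on the log2(FPKM + 1) scale, is given for contrast, from chr3:95498960-95499259 (plus strand), with GAGGAA, the core bound by the macrophage factor PU.1, or its complement, in capitals.
Ctsk: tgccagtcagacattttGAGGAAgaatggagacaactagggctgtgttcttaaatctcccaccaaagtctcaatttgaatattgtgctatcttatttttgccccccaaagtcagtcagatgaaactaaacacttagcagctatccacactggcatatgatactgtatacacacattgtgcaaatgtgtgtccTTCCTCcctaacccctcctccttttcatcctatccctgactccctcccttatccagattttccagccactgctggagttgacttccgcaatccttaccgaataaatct
On both strands, GAGGAA was found in 2 of the 7 member promoters held in the table, Ctsk and Mrc1, and in 28.3% of all 32851 promoter windows. The AP-1 sequence TGANTCA was found only in Itgax among the 7 (7.81% of all windows), and the E-box form CANGTG in Ear1, Ear2, Krt79 and Mrc1 (44.9% of all windows). These matches describe the letters in the windows only.

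In the lungs of the 12 mice given saline in room air, Ear2 and Chil3 were the most abundant of the 9 genes and Msr1 the least. Ear2 had a median of 118.5 FPKM (range 65.5 to 177.9) and Chil3 a median of 114.9 (range 40.7 to 393.7). Ear1 followed with a median of 47.5, then Ctsk with 20.1, Mrc1 with 16.1, Atp6v0d2 with 12.9, Krt79 with 12.8, Itgax with 7.75 and Msr1 with 1.58. Within the strains the order differed. In C57B, Chil3 (median 290.3) was above Ear2 (138.3) and Krt79 (6.8) below Itgax (7.75), and in C3H, Ear2 (116.2) was above Chil3 (62.2) and Krt79 (25.7) above Mrc1 (18.65). The ranges of neighbours in the pooled order overlapped except between Itgax (5.87 to 14.9) and Msr1 (0.41 to 2.54). In a whole-lung library, fewer cells of a type and less RNA per cell cannot be told apart, which holds for every value that follows.

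The strains differed at baseline in 5 of the 9 genes. Krt79 was between 13.3 and 35.4 FPKM in the 6 C3H lungs (median 25.7) and between 5.28 and 12.2 in the 6 C57B lungs (median 6.8), without overlap. Mrc1 was between 16.6 and 32.9 in C3H and between 10.1 and 15.5 in C57B, again without overlap. Chil3 went the other way, with a median of 62.2 in C3H (range 40.7 to 141.5) and a median of 290.3 in C57B (range 88.3 to 393.7), where only C3H mouse 25 reached into the C57B range. The FPKM ranges of the strains did not overlap for 5.98% of the 15546 genes tested in these 12 lungs.

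Tested with limma on log2(FPKM + 1) over these 15546 genes, Krt79 was higher in C3H by 1.64 ± 0.19 (log2, SE, adjusted p = 0.000114), Ctsk by 0.76 ± 0.17 (adjusted p = 0.0129), Mrc1 by 0.62 ± 0.14 (adjusted p = 0.0129) and Atp6v0d2 by 0.67 ± 0.19 (adjusted p = 0.0399), and Chil3 was lower by 1.88 ± 0.25 on the same scale (adjusted p = 4e-04). The share of all genes called, in either direction, was 11.8%. The exact permutation test of FPKM gave p = 0.00216 for Krt79 and Mrc1, the smallest that 6 against 6 mice allow, 0.00433 for Chil3, 0.00866 for Ctsk and 0.0346 for Atp6v0d2. Itgax (log2 difference 0.22, adjusted p = 0.332), Msr1 (0.18, 0.651), Ear1 (0.14, 0.57) and Ear2 (-0.10, 0.768) did not pass the threshold. The median difference over all genes was -0.10 and came close to 0 under quantile normalization (0.016). Without mice 1 and 3 the calls of Mrc1 (0.44, adjusted p = 0.0677) and Atp6v0d2 (0.71, adjusted p = 0.103) were lost, and over all alternatives their adjusted p ranged from 0.000253 to 0.0677 and from 0.000798 to 0.103. Atp6v0d2 was also lost without the filter on low values (adjusted p = 0.0736) and when mouse 3, 13, 14, 15, 25, 26 or 37 was left out.

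Markers of other cells also differed between the strains in these lungs, and their part in the results for the 9 genes was not tested. The background of 11.8% was 609 genes higher and 1223 lower in C3H of 15546, with a median of -0.10, and the split was 974 and 930 with quantile normalization and 929 and 1008 with median ratio scaling. Of 10 neutrophil markers, 6 were lower in C3H (median -0.92), among them S100a8 (75.6 FPKM ± 25.2 against 182.4 ± 91.8, SD, n = 6 each; -1.12, adjusted p = 0.00997). Of 15 monocyte and recruited macrophage markers, 4 were higher and 4 lower, with Ccr2 among the lower (-0.99, adjusted p = 0.00576). Lyz2 (-0.91, adjusted p = 0.00331) and Ptprc, the leukocyte gene CD45 (-0.59, adjusted p = 0.0444), were the called genes of the 8 shared by all macrophages. Of 9 neutrophil markers tested without mice 1 and 3, 4 were lower, and 3 monocyte markers were called each way.

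**Figure D1:**
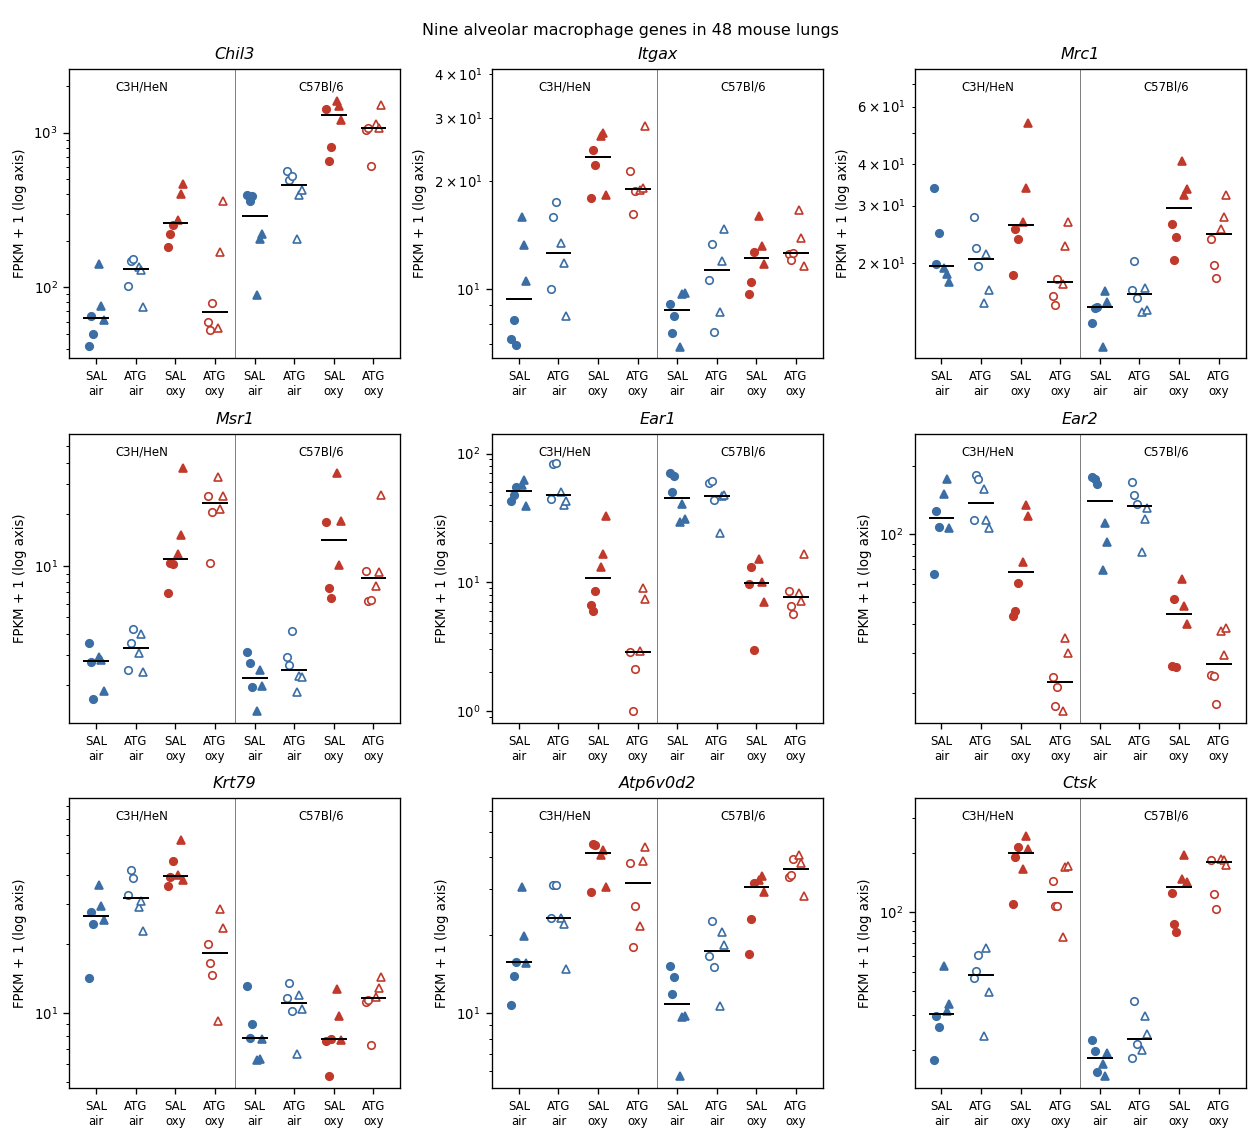
FPKM + 1 on a log axis for each of the 9 genes in 48 lungs, in 8 groups of 6 mice by strain, injection and air (air, room air; oxy, hyperoxia). Circles are males and triangles females, blue is room air and red hyperoxia, filled points are saline and open points ATG, and black lines are medians. Ctsk and Msr1 in hyperoxia lie above every room air lung, Ear1 and Ear2 are lower in most hyperoxia lungs, and Krt79 in saline mice is separated by strain.

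In hyperoxia the 9 genes did not move as a block: 7 rose and 2 fell in the saline mice. Ctsk, Msr1 and Chil3 rose most, Atp6v0d2, Itgax and Mrc1 less, Krt79 least, and Ear1 and Ear2 fell. The contrast of 12 hyperoxia with 12 room air lungs was a broad one, since 61.6% of all genes tested were called, 32.4% higher and 29.1% lower, so 9 of 9 genes called is to be read against that share. The median log2 change was 0.85 over the 9 genes and 0.01 over all genes.

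Ctsk was between 13.7 and 52.3 FPKM in saline room air (median 20.1) and between 78.2 and 243 in saline hyperoxia (median 155.8). Msr1 was between 0.41 and 2.54 in room air (median 1.58) and between 5.47 and 36.4 in hyperoxia (median 10.0). For both genes all 12 hyperoxia lungs lay above all 12 room air lungs, a separation found for 7.47% of all genes. Ctsk rose by 2.69 ± 0.16 (log2, SE, limma adjusted p = 7.26e-17) and Msr1 by 2.49 ± 0.22 (adjusted p = 4.07e-12).

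Among the secreted and surface proteins, Chil3 was between 40.7 and 393.7 FPKM in room air and between 180.3 and 1595 in hyperoxia (medians 114.9 and 558.3), a rise of 2.14 ± 0.21 (adjusted p = 4e-11). The ranges overlapped across strains but not within either strain. Itgax went from a median of 7.75 to 16.0, a rise of 0.85 ± 0.11 (adjusted p = 4.85e-08), and 7 of 12 hyperoxia lungs lay above all room air lungs. Mrc1 went from a median of 16.1 to 25.6, a rise of 0.71 ± 0.10 (adjusted p = 1.44e-07), with 3 of 12 above all room air lungs. Atp6v0d2, the pump subunit, went from a median of 12.9 to 31.1, a rise of 1.28 ± 0.14 (adjusted p = 1.31e-09).

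Krt79 was between 5.28 and 35.4 FPKM in room air and between 4.32 and 55.9 in hyperoxia, and its rise of 0.37 ± 0.14 (adjusted p = 0.024) was the smallest of the 9. Its adjusted p ranged from 0.0112 to 0.124 over all alternatives, and it was lost without mice 1 and 3 (0.28, adjusted p = 0.124), with median ratio scaling (0.31, adjusted p = 0.052) and with library weights (0.26, adjusted p = 0.0562). It was also lost when mouse 1, 14, 32 or 43 alone was left out, with the log2 change between 0.30 and 0.33.

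Both ribonuclease genes fell. Ear1 was between 28.3 and 69.2 FPKM in saline room air (median 47.5) and between 1.99 and 31.9 in saline hyperoxia (median 8.89), and 11 of 12 hyperoxia lungs lay below every room air lung, the exception being C3H female 33. Ear2 was between 65.5 and 177.9 in room air (median 118.5) and between 24.9 and 133.1 in hyperoxia (median 48.98), with 9 of 12 below. The decrease was larger for Ear1, which fell by 2.25 ± 0.22 (log2, adjusted p = 3.57e-11), than for Ear2, which fell by 1.16 ± 0.14 (adjusted p = 5.32e-09), though this difference between the genes was not tested. Ear1 amounted to a median of 36.9% of Ear2 in saline room air (range 28% to 63.5%) and of 15.7% in saline hyperoxia (range 7.98% to 34.6%).

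**Figure D2:**
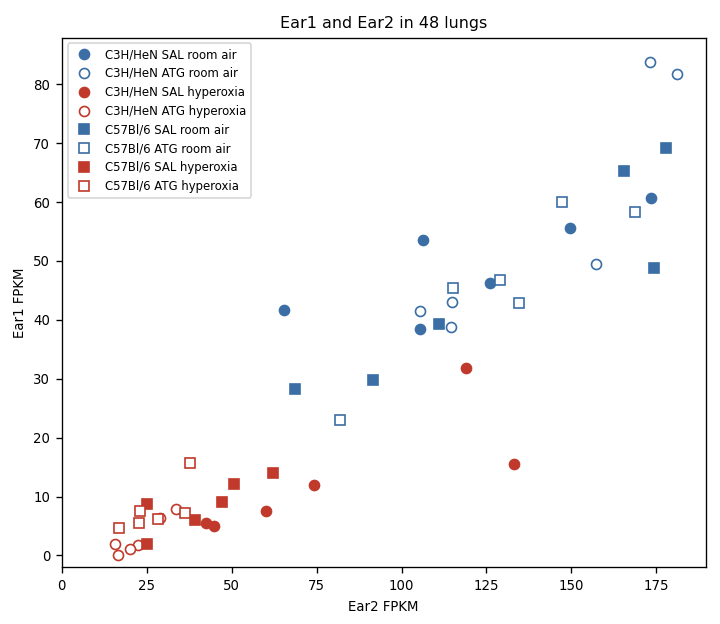
Ear1 FPKM against Ear2 FPKM in the 48 lungs, circles C3H and squares C57B, blue room air and red hyperoxia, filled saline and open ATG. Most hyperoxia lungs lie below the room air lungs in both genes, and the C3H ATG hyperoxia lungs have the lowest medians of both.

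Not every gene of this family fell. Ear6, another gene of the family that was listed with the eosinophil markers, was between 6.16 and 19.5 FPKM in the 6 C57B saline hyperoxia lungs and at most 1.25 in C57B saline room air, a rise of 3.23 ± 0.19 (log2, adjusted p = 1.04e-16). In C3H it was listed at 0 in all 6 saline room air lungs and reached at most 0.295 in saline hyperoxia. The difference in response between the strains was called (limma adjusted p = 1.1e-10). Reads of both strains were mapped to the same assembly, mm10. The part of sequence differences between the strains in these values, or in other strain comparisons here, was not tested. Chil4, the closest relative of Chil3, rose with it from a mean of 0.93 ± 0.95 FPKM to 4.35 ± 2.62 (SD, n = 12; log2 change 1.44, adjusted p = 9.32e-06) and stayed far below Chil3 in level. Epx, which encodes eosinophil peroxidase and is a defining eosinophil marker, was listed at 0 in all 48 lungs. The other eosinophil markers were above 0 in some or all lungs. Besides Ear6 these were Alox15 in 48 lungs (at most 12.7 FPKM), Il5ra in 35 (0.887), Ccr3 in 28 (0.273) and Prg2 in 20 (2.41). Ear6 was the only called gene of the 2 eosinophil markers tested, of 6 listed (both were called without mice 1 and 3). Of 25 relatives that could share reads with the 9 genes, 20 were in the table, 8 of them at 0 in every lung, and of the 10 tested 5 were higher and 4 lower in saline hyperoxia, among them Ctsl (0.89), Mrc2 (-0.87) and Ear-ps9 (-0.91).

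In C3H all 9 genes were called in hyperoxia and in C57B 8 were, and those 8 moved in the same direction in both strains. The background was 41.1% and 57.4% of all genes called. Chil3 rose by 2.08 ± 0.29 in C3H and 2.20 ± 0.29 in C57B, Msr1 by 2.38 ± 0.31 and 2.60 ± 0.31, Ctsk by 2.60 ± 0.22 and 2.79 ± 0.22, and Atp6v0d2 by 1.19 ± 0.20 and 1.37 ± 0.20. Itgax rose by 1.19 ± 0.16 and 0.51 ± 0.16, and Mrc1 by 0.39 ± 0.14 and 1.03 ± 0.14. Ear1 fell by 2.11 ± 0.31 in C3H and by 2.39 ± 0.31 in C57B, and Ear2 by 0.68 ± 0.20 and 1.63 ± 0.20. The exception was Krt79, which rose in C3H (0.73 ± 0.20, adjusted p = 0.00376) and was 0.01 ± 0.20 in C57B (adjusted p = 0.97), yet the difference between the strains did not pass the threshold (0.72 ± 0.29, adjusted p = 0.0774). Without mice 1 and 3 the call of Krt79 in C3H was lost (0.55, adjusted p = 0.0891), and the difference between the strains passed without mouse 2 (0.82, adjusted p = 0.0397) and with library weights (0.82, adjusted p = 0.00709).

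The test of the difference itself called 3 of the 9 genes, against 17.6% of all genes. Itgax was between 8.66 and 15.0 FPKM in C57B hyperoxia and between 17.0 and 26.4 in C3H hyperoxia, without overlap, and rose more in C3H (difference 0.68 ± 0.23, adjusted p = 0.0358). Ear2 fell less in C3H (difference 0.95 ± 0.28, adjusted p = 0.0167), where the mean went from 121 to 79.0 FPKM, than in C57B, where it went from 131.5 to 41.6. Mrc1 rose less in C3H (difference -0.64 ± 0.20, adjusted p = 0.0251), from a mean of 21.4 to 29.3 FPKM, against 13.3 to 28.7 in C57B. Chil3 (-0.12), Msr1 (-0.22), Ear1 (0.29), Atp6v0d2 (-0.18) and Ctsk (-0.19) had adjusted p of 0.696 or more. The median difference over all genes was 0.15, so relative to it these values were 0.53 for Itgax, 0.80 for Ear2 and -0.78 for Mrc1. All 3 calls were lost without mice 1 and 3 (adjusted p = 0.125, 0.101 and 0.167 in that order), and Itgax was also lost under median ratio scaling (0.50, adjusted p = 0.0942) and quantile normalization (0.47, adjusted p = 0.138). Without the filter on low values the call of Itgax was lost as well (adjusted p = 0.056). Itgax was lost when mouse 3, 8, 9, 13, 19, 27, 31, 32, 38, 39 or 45 was left out, and Mrc1 without mouse 1, 7, 19, 31 or 37 and when fitted on these groups alone (adjusted p = 0.0654). Over all alternatives the adjusted p ranged from 0.00121 to 0.138 for Itgax, from 0.00416 to 0.101 for Ear2 and from 0.00144 to 0.167 for Mrc1. Mrc1 lost its own call in C3H (0.39 ± 0.14, adjusted p = 0.0248) when mouse 2, 8, 9 or 33 was left out, with a change between 0.26 and 0.37, and under both other scalings (0.25, adjusted p = 0.183 with quantile normalization, and 0.24, adjusted p = 0.241 with median ratio scaling). The same call was lost when only the groups of the contrast were fitted (0.39, adjusted p = 0.11).

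Chil3 and Krt79 separated the strains in hyperoxia as well. Chil3 had a median of 260.1 FPKM in C3H (range 180.3 to 465.4) and 1306 in C57B (range 651.1 to 1595), and Krt79 had 38.7 (range 34.9 to 55.9) against 6.73 (range 4.32 to 11.8), both without overlap. Among saline hyperoxia lungs, 5 of the 9 genes were called between strains, against 31.1% of all genes: Chil3 was lower in C3H by 2.00 on the log2 scale, and Krt79 (2.37), Itgax (0.90), Ear2 (0.85) and Ctsk (0.57, adjusted p = 0.0469) were higher. The call of Ctsk was lost when mouse 8, 9, 20, 21, 32, 33, 43 or 45 was left out, with an adjusted p of up to 0.129, with median ratio scaling (adjusted p = 0.0836), with no filter (0.0774) and with eBayes without trend (0.051). Mrc1, which differed in room air, had means of 29.3 and 28.7 FPKM in hyperoxia (-0.02, adjusted p = 0.954). Msr1 (-0.03, adjusted p = 0.959), Ear1 (0.43, adjusted p = 0.309) and Atp6v0d2 (0.49, adjusted p = 0.0623) did not pass, though Atp6v0d2 did without mouse 7, 21 or 33, on these groups alone (0.0447) and with library weights (0.00928).

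**Figure D3:**
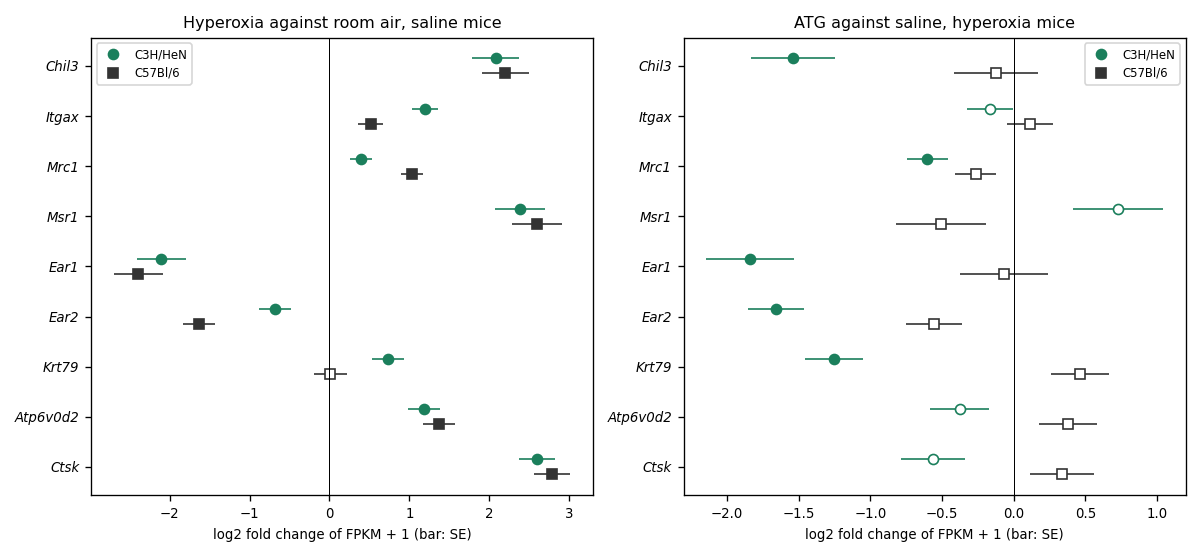
Log2 fold changes of FPKM + 1 for the 9 genes, with SE bars, in C3H (circles) and C57B (squares), for hyperoxia against room air in saline mice (left) and for ATG against saline in hyperoxia mice (right). Filled points have a limma adjusted p under 0.05. With hyperoxia the points of both strains lie close for Chil3, Msr1, Ctsk, Atp6v0d2 and Ear1, and the calls with ATG in hyperoxia were all in C3H.

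Males and females of the saline room air groups were not called different in any of the 9 genes in the fit of these 12 lungs (0 of 9 with limma, 2 at an unadjusted p under 0.05, against 0.669% of all genes called). The log2 differences, male minus female, were 0.24 for Chil3, -0.43 for Itgax, 0.24 for Mrc1, 0.23 for Msr1, 0.39 for Ear1, 0.20 for Ear2, 0.02 for Krt79, 0.03 for Atp6v0d2 and -0.26 for Ctsk. The interaction of strain and sex in the same 12 lungs called none of the 9 and 0% of all genes, with 7 of the 9 and 2538 of all genes at an unadjusted p under 0.05. In Ear2, the mean was 99.3 FPKM in C3H males and 142.8 in C3H females, but 172.5 in C57B males and 90.5 in C57B females (n = 3 each). Its interaction was -1.49 on the log2 scale with a limma adjusted p of 0.147, and the others were -2.02 for Chil3, -0.75 for Itgax, 0.46 for Mrc1, -0.40 for Msr1, -1.001 for Ear1, -1.02 for Krt79, -1.40 for Atp6v0d2 and -0.85 for Ctsk. When mouse 2, the C3H male of this group beside mice 1 and 3, was left out, 2741 genes were called, Ear2 among them (-1.69, adjusted p = 0.00993), with Chil3, Ear1, Krt79 and Atp6v0d2. Ear2 (adjusted p = 0.0263), Chil3 (0.042) and Atp6v0d2 (0.0417) also passed in the fit of all 48 mice. With library weights, the genes that passed included Chil3 (adjusted p = 0.00172), Itgax (0.00465), Msr1 (0.0486), Ear1 (0.00578) and Ear2 (0.00112). Over all alternatives the adjusted p of Ear2 ranged from 0.00112 to 0.532. Between the sexes, Itgax was called lower in males without mouse 2 (-0.47, adjusted p = 0.0342), and with library weights Itgax (-0.61, adjusted p = 0.00117) and Ctsk (-0.41, adjusted p = 0.035) were called lower and Ear1 higher in males (0.42, adjusted p = 0.00745).

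Sex and hyperoxia interacted in Mrc1 and Ear2 (2 of 9, against 1.8% of all genes). Mrc1 had a mean of 17.51 FPKM in C3H females and 13.3 in C57B females in room air and of 37.1 and 34.7 in hyperoxia, whereas in males it was 25.2 and 13.2 in room air and 21.6 and 22.7 in hyperoxia. The male change was thus smaller by 0.89 ± 0.20 on the log2 scale (adjusted p = 0.0251). Ear2 fell further in males, to 0.495 and 0.195 of the room air mean in C3H and C57B, than in females, to 0.762 and 0.547 (difference -1.06 ± 0.28, adjusted p = 0.0435). Relative to the median of all genes (0.13), the differences were -1.02 for Mrc1 and -1.19 for Ear2. Without mice 1 and 3, which are males of the room air side, neither passed (adjusted p = 0.154 for Mrc1 and 0.0781 for Ear2) and the number of genes called fell from 306 to 5. Fitted on these groups alone, they did not pass either (adjusted p = 0.125 and 0.145). Mrc1 was also lost without mouse 1, 20, 21 or 33, and Ear2 without mouse 3, 7, 8, 14, 15, 21, 25, 27, 32, 33, 37, 39 or 43, with no filter (adjusted p = 0.068) and with quantile normalization (-0.99, adjusted p = 0.0642). Over all alternatives the adjusted p ranged from 9.65e-05 to 0.154 for Mrc1 and from 0.00285 to 0.145 for Ear2. Ear1 (-1.37, adjusted p = 0.0722) and Msr1 (-1.24, adjusted p = 0.0972) did not pass, except Ear1 without mouse 2, 19 or 31 and Msr1 without mouse 19 (adjusted p = 0.0223), and both with library weights. Chil3 (-0.96), Itgax (0.20), Krt79 (-0.36), Atp6v0d2 (-0.24) and Ctsk (-0.27) had adjusted p of 0.17 or more.

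Few markers of other cells were called by limma in the same interaction, and their part in it was not tested. Of 10 neutrophil markers (median -1.90, 7 at an unadjusted p under 0.05) 1 was called, S100a8 (-3.31 ± 0.88, adjusted p = 0.0447), of 8 genes shared by all macrophages 1, the Fc receptor gene Fcgr1 (-1.32, adjusted p = 0.0306), and 0 of 15 monocyte and recruited macrophage markers and 0 of 8 dendritic cell markers (3 of each list at an unadjusted p under 0.05). Of the 15 other genes known from alveolar macrophages, 1 was called, the fatty acid binding protein gene Fabp1 (-1.25, adjusted p = 0.0496). For S100a8, Fcgr1 and Fabp1 the values without mice 1 and 3 were -3.08, -1.54 and -1.07, with adjusted p of 0.186, 0.0723 and 0.206.

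ATG given before room air changed none of the 9 genes at the adjusted threshold. Limma called 0.0235% of all genes in this contrast, and 5 of the 9 and 1248 of all genes had an unadjusted p under 0.05. Those 5 were all higher with ATG: Atp6v0d2 (mean 19.8 FPKM ± 6.23 against 13.4 ± 6.26, SD, n = 12 each; log2 difference 0.59, adjusted p = 0.318), Chil3 (0.79, 0.333), Ctsk (0.50, 0.492), Itgax (0.35, 0.522) and Krt79 (0.36, 0.612). The others had log2 differences of 0.04 (Mrc1), 0.29 (Msr1), 0.07 (Ear1) and 0.14 (Ear2), with adjusted p of 0.763 or more. With weights on each library, Chil3, Itgax, Atp6v0d2 and Ctsk passed (adjusted p between 0.0137 and 0.0264), and Chil3 and Atp6v0d2 also passed when mouse 2 was left out (0.0371 and 0.0334).

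In hyperoxia, by contrast, 4 of the 9 genes were lower with ATG than with saline and none was higher, against 5.38% of all genes called. Ear2 was between 24.9 and 133.1 FPKM with saline (median 48.98) and between 15.5 and 37.7 with ATG (median 22.8). It fell by 1.11 ± 0.14 on the log2 scale (adjusted p = 1.05e-05), and 7 of 12 ATG lungs lay below every saline lung. Ear1 fell by 0.95 ± 0.22 (adjusted p = 0.00964), Chil3 by 0.83 ± 0.21 (adjusted p = 0.0155) and Mrc1 by 0.43 ± 0.10 (adjusted p = 0.0102), with overlapping ranges. Msr1 (0.11), Itgax (-0.02), Atp6v0d2 (0.00) and Ctsk (-0.11) had adjusted p of 0.749 or more, and Krt79 had -0.40 (adjusted p = 0.0961), which passed only when mouse 35 was left out (-0.48, adjusted p = 0.0436). The 4 calls held under every alternative tried, with adjusted p of at most 0.0422. The median over all genes was 0.05. The saline hyperoxia lungs are also the treated side of the hyperoxia contrast, so the lungs are shared between these results.

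The effect of ATG differed between hyperoxia and room air in Chil3 (difference -1.63 ± 0.29, adjusted p = 0.00281), Ear2 (-1.25 ± 0.20, adjusted p = 0.00103) and Krt79 (-0.76 ± 0.20, adjusted p = 0.0356), that is 3 of 9 against 2.77% of all genes. Mrc1 (-0.48, adjusted p = 0.0574) and Ear1 (-1.02, adjusted p = 0.0602) did not pass. Mrc1 passed without mouse 1, 7, 22, 31 or 38, without mice 1 and 3 (adjusted p = 0.0357), with the stricter filter (0.0497) and with library weights (0.0105), and Ear1 without mouse 2, 4, 10, 21, 31, 35, 40 or 48 and with library weights (0.00676). Itgax (-0.37), Msr1 (-0.18), Atp6v0d2 (-0.58) and Ctsk (-0.61) had adjusted p of 0.103 or more, and Itgax (0.0438) and Ctsk (0.0418) passed with library weights. The call of Krt79 was lost when mouse 1, 5, 6, 8, 12, 14, 15, 16, 19, 24, 27, 28, 32, 37, 41 or 42 was left out, with an adjusted p of up to 0.0636, and without mice 1 and 3 (-0.66, adjusted p = 0.0809). Without the filter on low values the call of Krt79 was lost as well (adjusted p = 0.0582). Over all alternatives its adjusted p ranged from 0.0108 to 0.0809.

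After the values had been seen, the ATG effect in hyperoxia was also fitted in each strain. In C3H, 5 of the 9 genes were lower with ATG (2.88% of all genes called), and in C57B 0 of 9 were called by limma (2.69% of all genes, 2 of the 9 at an unadjusted p under 0.05). The 457 genes behind the 2.69% became 1 on these groups alone, 0 without mouse 19 and 1217 without mouse 21. In C3H hyperoxia, Krt79 was between 34.9 and 55.9 FPKM with saline and between 8.31 and 27.5 with ATG, and Ear2 was between 42.4 and 133.1 with saline and between 15.5 and 33.7 with ATG, both without overlap. The log2 changes were -1.25 ± 0.20 for Krt79 (adjusted p = 0.000256) and -1.66 ± 0.20 for Ear2 (adjusted p = 1.16e-06).

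Ear1 was between 4.95 and 31.9 FPKM with saline and between 0 and 7.97 with ATG in these C3H lungs (-1.84 ± 0.31, adjusted p = 0.000368), and was listed at 0 in mouse 11. Chil3 had medians of 260.1 and 68.6 (-1.54 ± 0.29, adjusted p = 0.00163), with female 36 at 360.7 and the next ATG lung at 167.5. Mrc1 had medians of 25.1 and 16.6 (-0.60 ± 0.14, adjusted p = 0.0117), a call lost without mouse 34 (adjusted p = 0.0537). Fitted on these groups alone, Chil3 (adjusted p = 0.0553) and Mrc1 (0.0975) did not pass. In C57B hyperoxia the same genes had changes of 0.46 (Krt79), -0.56 (Ear2), -0.07 (Ear1), -0.12 (Chil3) and -0.27 (Mrc1), with adjusted p of 0.108 or more. With library weights, Ear2 (-0.76, adjusted p = 0.00273) and Krt79 (0.66, adjusted p = 0.0119) were called in C57B.

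Msr1 had a change of the opposite sign in C3H, which did not pass the threshold in the main fit. Its mean was 21.8 FPKM ± 7.58 with ATG and 14.3 ± 11.2 with saline in C3H hyperoxia, and 9.81 ± 7.64 and 14.8 ± 10.6 in C57B hyperoxia (SD, n = 6 each), with overlapping ranges. The log2 change was 0.73 in C3H (adjusted p = 0.23) and -0.51 in C57B (adjusted p = 0.394), and with library weights it was called in C3H (0.94, adjusted p = 0.0065). The changes in C3H and C57B were -0.16 and 0.12 for Itgax, -0.38 and 0.38 for Atp6v0d2 and -0.57 and 0.34 for Ctsk, with adjusted p of 0.179 or more.

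The difference between the strains in this effect was called for Krt79 (-1.71 ± 0.29, adjusted p = 0.000797), Ear1 (-1.77 ± 0.44, adjusted p = 0.028) and Ear2 (-1.10 ± 0.28, adjusted p = 0.0327), that is 3 of 9 against 1.38% of all genes. It did not pass for Chil3 (-1.42 ± 0.42, adjusted p = 0.0754) or Mrc1 (-0.34 ± 0.20, adjusted p = 0.484). Without mouse 36, Chil3 passed (-1.74, adjusted p = 0.0136). For Msr1 the difference was 1.235 ± 0.44 (adjusted p = 0.168), and it passed without mouse 33 (1.48, adjusted p = 0.0378), without mouse 48 (1.51, adjusted p = 0.047) and with library weights (1.45, adjusted p = 0.00378). Itgax (-0.28), Atp6v0d2 (-0.76) and Ctsk (-0.90) had adjusted p of 0.153 or more. The call of Krt79 held under every alternative tried, with an adjusted p of at most 0.0142. Those of Ear1 and Ear2 were lost without the filter and on these groups alone, with adjusted p between 0.00806 and 0.151 for Ear1, which was lost without mouse 9, 11, 34 or 45, and between 0.00681 and 0.101 for Ear2, lost without mouse 9, 11, 12, 19, 22, 23, 32, 34, 45 or 46.

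Ordered by the median of each of the 8 groups of strain, injection and air, Chil3 ran from 1306 FPKM in C57B saline hyperoxia to 62.2 in C3H saline room air, a ratio of 21, and 5 of its 7 neighbouring pairs of groups had overlapping ranges. Ear1 ran from 49.9 in C3H saline room air to 1.87 in C3H ATG hyperoxia, a ratio of 26.7, and Msr1 from 22.4 in C3H ATG hyperoxia to 1.21 in C57B saline room air, a ratio of 18.5. For Msr1 and Ctsk the only break between neighbours without overlap was the step from the lowest hyperoxia group to the highest room air group. All neighbours overlapped for Itgax, Mrc1, Ear1, Ear2, Krt79 and Atp6v0d2, whose highest and lowest medians differed by a ratio of 2.88 for Itgax, 2.07 for Mrc1, 6.49 for Ear2, 5.75 for Krt79 and 4.13 for Atp6v0d2.

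Other genes known from alveolar macrophages also split in hyperoxia. Of 15 such genes tested, 10 were higher, 4 lower and 1 not called in saline hyperoxia, with a median of 0.71 (0.01 over all genes). As for the 9 genes, the background for this and each list that follows was 32.4% of all genes higher and 29.1% lower in hyperoxia. With these mice left out, 9 were higher and 4 lower. Marco, a scavenger receptor, rose by 1.90 ± 0.20, Il1rn, the interleukin 1 receptor antagonist, by 1.81 ± 0.23, and Olr1, a receptor for oxidized lipoprotein, by 1.26 ± 0.14. Fabp1, a fatty acid binding protein, fell from a mean of 17.8 FPKM ± 9.55 to 0.488 ± 0.732 (SD, n = 12 each), by 3.55 on the log2 scale (adjusted p = 3e-19). Siglecf, the sialic acid receptor that marks resident cells, fell by 0.42 ± 0.14 (adjusted p = 0.0104) over both strains. In C57B the change was -0.81 ± 0.20 (adjusted p = 0.000735) and in C3H -0.03 ± 0.20 (adjusted p = 0.943, 4.06 FPKM against 4.22), and the difference between the strains was called (0.79, adjusted p = 0.0493) but not without mice 1 and 3 (0.72, adjusted p = 0.152). Pparg rose by 0.74 ± 0.07 (adjusted p = 9.23e-11). Siglecf, Marco, Fabp4, Car4, Pparg, Plet1 and Lpl were above 0 in all 48 lungs.

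With ATG in room air, Marco was the only gene of this list called. It had a mean of 12.7 FPKM ± 3.44 against 4.02 ± 1.47 with saline (1.47 ± 0.20, adjusted p = 0.000118). With ATG in hyperoxia, where 5.38% of all genes were called (671 higher and 243 lower of 16994, but 313 and 398 with quantile normalization and 276 and 456 with median ratio scaling), 2 of the 15 were lower and none higher, Siglecf (1.33 ± 0.58 against 3.14 ± 1.25 FPKM, log2 change -0.80, adjusted p = 0.00148) and Lpl, a lipase (-0.41, adjusted p = 0.0352). Between strains in saline room air, against 11.8% of all genes called, 4 of the 15 were higher in C3H and none lower, namely Car4 (1.17), Fabp1 (1.03), Olr1 (0.70) and Bhlhe41 (0.49).

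Of 20 genes for the growth factors, receptors and transcription factors that maintain these cells, 14 were higher and 2 lower in saline hyperoxia. Bhlhe40, a transcription factor, rose by 1.84 ± 0.11 and Csf2rb, the common beta chain of the GM-CSF receptor, by 1.11 ± 0.19. Csf1, the ligand M-CSF, rose by 1.504 ± 0.27 over both strains, by 2.42 ± 0.38 in C57B (adjusted p = 1.32e-06), and had 0.58 ± 0.38 in C3H (adjusted p = 0.227). The difference between the strains was called (-1.84, adjusted p = 0.0161) but not without mice 1 and 3 (-1.77, adjusted p = 0.055). The M-CSF receptor Csf1r fell by 0.39 ± 0.11. Csf2, the gene of GM-CSF itself, was at 2.37 FPKM ± 0.999 in room air and 6.44 ± 8.21 in hyperoxia and was not called (adjusted p = 0.119). With ATG in hyperoxia, 1 of the 20 was called, near the background of 5.38%, and it was Csf2rb2, which was lower (-0.48, adjusted p = 0.0456). In room air limma called 0 of 20, with 1 at an unadjusted p under 0.05.

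Markers of other cells moved with the hyperoxia contrast, and their part in the results for the 9 genes was not tested. Of 8 genes shared by all macrophages, 5 rose, among them Cd68 (2.03), Cd163 (1.347) and Adgre1 (0.86), and 2 fell, among them Lyz2, a lysozyme, by 1.46 on the log2 scale. Of 15 markers of monocytes and interstitial or recruited macrophages, 11 rose and 2 fell (median 1.01), led by Gpnmb (2.71), Lgals3 (1.94), Spp1 (1.64) and Trem2 (1.53), and the summed list had medians of 1086 FPKM in room air and 1794 in hyperoxia. Apoe, the most abundant of the list over all 48 lungs, fell by 0.58 on the log2 scale, while Lgals3 reached a mean of 649.3 FPKM in hyperoxia. Of 10 neutrophil markers, 8 rose (6 without mice 1 and 3), led by Retnlg (2.49), Cxcr2 (1.59), S100a8 (1.44) and S100a9 (1.38), and their summed FPKM was between 141.7 and 805.7 in saline room air and between 186.4 and 6352 in saline hyperoxia. Of 8 dendritic cell markers, which matter for Itgax, none rose and 5 fell, led by Clec9a, which fell by 1.26, Cd209a by 1.12, Ciita by 0.83 and Ccr7 by 0.71. Of 8 transcripts of lung epithelium, endothelium and heart muscle tested as a check, 2 were higher and 5 lower, Scgb1a1 by -2.55, Myh6 by -2.29, Sftpc by -2.26 and Actc1 by -2.16 on the log2 scale.

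For Ctsk and Atp6v0d2, which osteoclasts also use, 3 of 6 osteoclast genes tested rose, Mmp9 (0.80), Clcn7 (0.30) and Acp5 (0.29), against 1 of 6 without mice 1 and 3, and the summed list had medians of 56.8 FPKM in room air and 70.3 in hyperoxia, with Acp5 the most abundant over all lungs. Calcr and Ocstamp, which define osteoclasts, were at most 2.81 and 0.949 FPKM in any lung. Of 6 fibroblast markers, 1 rose (Pdgfra, 1.32) and 1 fell (Lum, by 0.39), with Col3a1 the most abundant. For Mrc1, which lymphatic endothelium also expresses, 2 of 4 lymphatic endothelial markers tested rose and none fell. Mmrn1 rose by 0.70 and Lyve1 rose by 3.10 ± 0.12, to a mean of 761.5 FPKM, while Prox1, the defining factor of that cell type, was at most 0.706 FPKM in any lung. Of 12 genes of alternative activation tested, 5 rose, led by Ccl17 (1.86), Il4ra (1.54) and Chil4 (1.44), and 2 fell, among them Il33 (-0.77).

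With ATG in hyperoxia, against the same 5.38%, 1 of the 15 monocyte and recruited macrophage markers was higher and 4 lower, led by Spp1 (-0.92 ± 0.22, adjusted p = 0.0109), Ly6c2 (-0.46, adjusted p = 0.0479), Apoe (-0.41, adjusted p = 0.00485) and Fn1 (-0.36, adjusted p = 0.0482). Limma called 0 of 10 neutrophil markers, 0 of 8 genes shared by all macrophages, 0 of 6 fibroblast markers and 0 of 2 eosinophil markers, with 3, 1, 1 and 0 of them at an unadjusted p under 0.05. Of 4 lymphatic endothelial markers 2 were lower, as was Mrc1, namely Mmrn1 (-0.38, adjusted p = 0.0261) and Flt4 (-0.35, adjusted p = 0.0345), and Pecam1, an endothelial gene, was the only one called of the 8 transcripts of the tissue check (-0.32, adjusted p = 0.0146). The part of endothelial cells in the lower Mrc1 was not tested. Of 10 relatives tested, 1 was higher and 1 lower. Chil1, a relative of Chil3, was higher with ATG (690.4 FPKM ± 500.5 against 291.2 ± 126.6, SD, n = 12 each; 0.94, adjusted p = 6.01e-05), while Chil3 was lower, and Ctss, a cathepsin related to Ctsk, was lower (-0.53, adjusted p = 0.000527). Il33, which encodes a cytokine, was higher (0.70, adjusted p = 0.0152), the only one called of 12 genes of alternative activation. Acp5 was lower (-0.43, adjusted p = 0.00996), and of the dendritic cell markers Ciita (0.48) and Xcr1 (0.27) were higher.

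**Figure D4:**
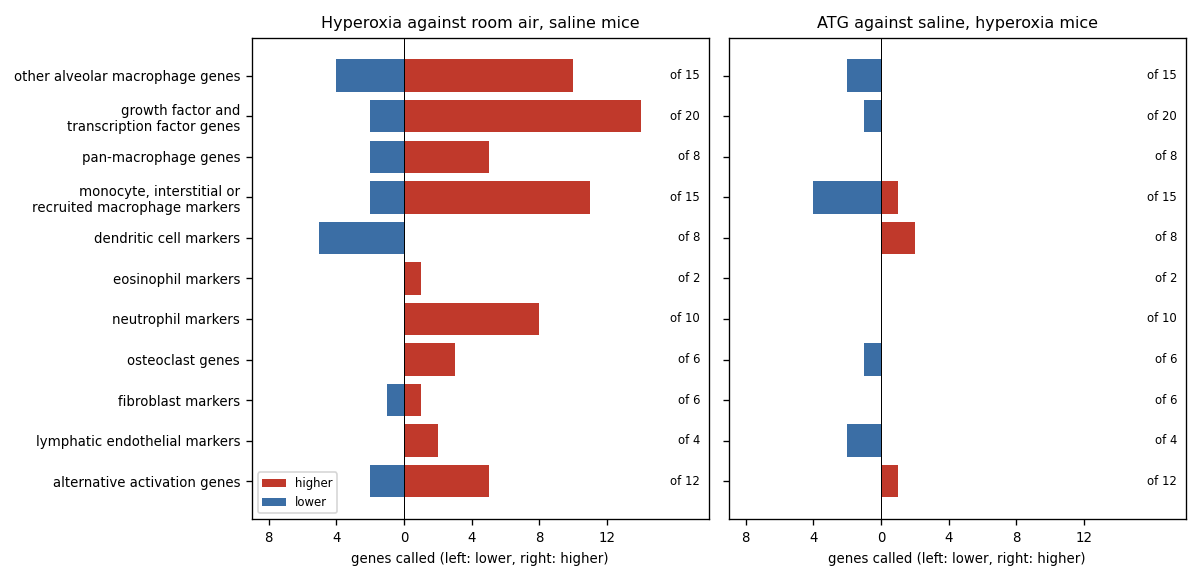
Number of genes called higher (red, to the right) and lower (blue, to the left) by limma in each gene list, for hyperoxia against room air in saline mice and for ATG against saline in hyperoxia mice, with the number tested at the right of each row. Most macrophage and neutrophil lists lean to higher in hyperoxia and dendritic cell markers to lower. With ATG, 5 of 15 monocyte, interstitial or recruited macrophage markers are called, against 5.38% of all genes. So are 2 of 4 lymphatic endothelial markers, 2 of 8 dendritic cell markers and 2 of 15 other alveolar macrophage genes. At most 1 gene is called in any other list.

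The saline hyperoxia lungs with most Msr1 also held high levels of monocyte and neutrophil transcripts. C3H female 33 had 36.4 FPKM of Msr1 with 48.3 of Ccr2 and 2230 of S100a8, and C57B female 43 had 33.7 of Msr1 with 37.6 of Ccr2 and 1584 of S100a8. The other C3H saline hyperoxia lungs had at most 14.2 FPKM of Msr1 and at most 7.02 of Ccr2. C57B male 19 had more Ccr2 than either (49.5 FPKM), 1703 of S100a8 and 17 of Msr1. Over the 48 lungs, the deviation of Msr1 from its group mean had a Pearson r of 0.74 with that of the summed neutrophil markers and of 0.57 with the monocyte and recruited macrophage markers. For Msr1 the r was also 0.63 with the growth factor and transcription factor genes and 0.53 with the other alveolar macrophage genes. With the fibroblast markers it was -0.51. For the monocyte and recruited macrophage markers, the other members had values from 0.06 (Atp6v0d2) to 0.53 (Chil3), with 0.44 for Krt79, 0.42 for Ear1 and 0.41 for Ctsk. For the neutrophil markers they had values from -0.19 (Atp6v0d2) to 0.40 (Ear1), with 0.33 for Mrc1 and 0.01 for Ctsk.

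Across all 48 lungs, the 36 pairs of members had a median Pearson r of 0.30 on log2(FPKM + 1), with 13 negative pairs, from -0.70 (Msr1 with Ear1) to 0.93 (Ear1 with Ear2). Ctsk and Atp6v0d2 followed each other (0.86), as did Ctsk and Msr1 (0.85). After the 16 group means were taken out, the median was 0.45 and 1 pair was negative, Msr1 with Atp6v0d2 (-0.05). Ear1 and Ear2 then had 0.75, Itgax and Atp6v0d2 0.81 and Chil3 and Krt79 0.71. These values share libraries and scaling and are a description only.

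**Figure D5:**
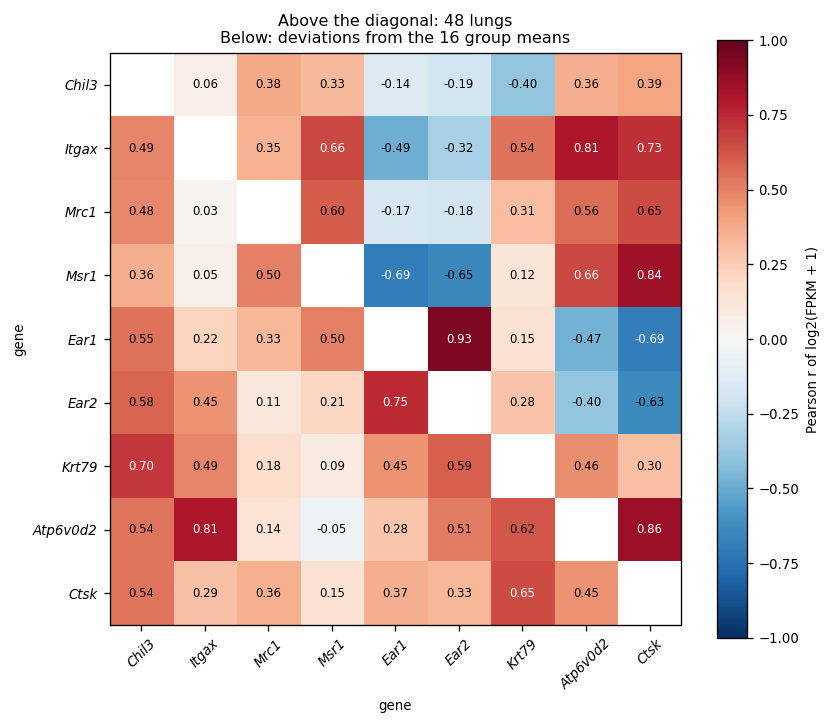
Pearson r of log2(FPKM + 1) between the 9 genes, above the diagonal over 48 lungs and below it for deviations from the 16 group means. Ear1 and Ear2 are negative with Itgax, Msr1, Atp6v0d2 and Ctsk above the diagonal and positive with them below it.

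Among all genes tested, those most like the mean of the 9 standardized genes over the 48 lungs were F7 (r = 0.87), Ctss (0.85), Ccl6 (0.82), Olr1 (0.82), Mpeg1 (0.82), Siglec1 (0.81), Clec4n (0.80), Cd68 (0.79), Ctsd (0.79) and Cd84 (0.77). The nearest single genes differed from member to member. Ctsk was most like Lgals3 (0.94) and Ftl1 (0.94), Msr1 like Ms4a6d (0.96) and Lilrb4a (0.95), and Atp6v0d2 like Gpnmb (0.89) and Olr1 (0.89). Itgax was most like Psap (0.89) and Olr1 (0.89), Mrc1 like Spp1 (0.78) and Tmed5 (0.73), and Chil3 like Hmga1 (0.90) and Atp6v0c (0.88). Ear1 was most like Ear2 (0.93) and Fabp1 (0.87), Ear2 like Ear1 and Slc29a1 (0.91), and Krt79 like B3gnt7 (0.89) and Baiap2l1 (0.87).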

How the data were processed

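RNA of 48 mouse lungs was sequenced by the authors with paired reads. Per the submitters' processing notes and the paper, reads were mapped to mm10 with GSNAP and FPKM values were derived by the authors with Cufflinks, for which a version is not given in the sources used here. The deposited table holds 1 FPKM per gene and mouse. These are not counts, so the depth is unknown and the precision rests on the spread between mice. Akap5 held overflow values and was left out. All genes of X, Y and M stand at 0 and could not be tested. The labels name a directional preparation and an earlier HiSeq instrument than the paper.

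Group means of log2(FPKM + 1) were estimated by limma 3.58.1 (R 4.3.3; contrasts, eBayes with trend) on genes reaching 1 FPKM in 3 or more mice, with Benjamini-Hochberg adjustment over all genes tested and a threshold of 0.05. All 48 mice were fitted together (16994 genes), except for strain and sex in saline room air (12 mice, 15546 genes). Strain levels were also compared by an exact permutation test, two-sided. The fit was tested on simulated data. Alternatives were the pseudocount, filter, scaling, trend, library weights, groups fitted and each mouse left out. Mice carry unique numbers and are not paired. All 9 genes are reported in each comparison. From each fixed list, counts and up to 4 called genes with the largest change are given for hyperoxia in saline mice and ATG in hyperoxia, with a selection in other comparisons, and others such as Siglecf, Pparg, Csf1r, Csf2, Ccr2, Ptprc and Fcgr1 were named after their values were seen. The values of 1 gene of the lists are not reported here. The genes and lists were chosen with earlier results of these data known.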

Additional observations from a re-analysis of the deposited data

Results flagged for a closer look

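Within the 8 groups of 6 mice by strain, injection and air, Dixon's ratio (the gap of an extreme lung to its nearest neighbour over the range of its group) passed its critical value in 5 of 72 tests of the 9 genes, and chance alone flags about 1 in 20. Msr1 was set apart in C57B ATG hyperoxia by mouse 48 (25.1 FPKM, next 8.35, ratio 0.842) and in C3H saline hyperoxia by mouse 33 (36.4, next 14.2, ratio 0.729). Mouse 48 also held the highest Ear1 of its group (15.6, next 7.51, ratio 0.738). Chil3 was set apart in C3H saline room air by mouse 25 (141.5, next 74.8, ratio 0.662) and in C3H ATG hyperoxia by mouse 36 (360.7, next 167.5, ratio 0.627).

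A response that differed between groups by an interaction term was found in 11 of 45 tests, the 9 genes in 5 interactions, which called 17.6% of all genes for strain by hyperoxia, 1.8% for sex by hyperoxia, 2.77% for ATG by air, 1.38% for strain by ATG and 0% for strain by sex. The 3 calls of strain by hyperoxia, the 2 of sex by hyperoxia and that of Krt79 in ATG by air were lost without mice 1 and 3. Between strains, the hyperoxia response differed in Itgax (0.68), Mrc1 (-0.64) and Ear2 (0.95), as C3H minus C57B on the log2 scale. Between sexes it differed in Mrc1 (-0.89) and Ear2 (-1.06), as males minus females. The ATG response differed between hyperoxia and room air in Chil3 (-1.63), Ear2 (-1.25) and Krt79 (-0.76), and in hyperoxia it differed between strains in Ear1 (-1.77), Ear2 (-1.10) and Krt79 (-1.71).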

How the results depend on the processing

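No value of the 9 genes that was called under any setting changed its sign, and of 1206 values under settings other than leaving out 1 mouse 34 lost the call and 36 gained it, 10 and 1 of them without mice 1 and 3. With 1 mouse left out, 87 of 2592 lost it and 33 gained it. The calls for hyperoxia in all saline mice were kept for every gene but Krt79. Library weights gained 30 calls and lost 1. No paired analysis was possible because every mouse has its own number. A fit on only the groups of the contrast was not run for the ATG by air comparison, which uses all groups. The cause of these changes was not tested. Leaving out mice 1 and 3 (gene lists included), the separate fits of ATG in each strain and the test between them were chosen after seeing the data.

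The number of genes called moved by more than 1.5 times as follows. Library weights gave 6516 for strain by hyperoxia (2994 in the main fit), 1069 for ATG in room air (4), 3007 for ATG in hyperoxia (914), 2803 for ATG by air (470), 6697 for strain in saline room air (1832), 7047 for sex in saline room air (104), 5928 for sex by hyperoxia (306), 5478 for strain by sex (0), 2450 for ATG in C3H in hyperoxia (490), 2285 for ATG in C57B in hyperoxia (457) and 1763 for strain by ATG in hyperoxia (234). The groups of the contrast alone gave 1880 for strain by hyperoxia, 6 for sex by hyperoxia, 280 and 1 for ATG in C3H and C57B in hyperoxia and 66 for strain by ATG. All 48 mice gave 2982 for strain, 1915 for sex and 748 for strain by sex in saline room air. Without mice 1 and 3 the counts were 1953 for strain by hyperoxia, 30 for sex, 5 for sex by hyperoxia and 1 for strain by sex. With no filter but a value above 0 they were 8 for ATG in room air, 313 for ATG by air, 40 for sex, 162 for sex by hyperoxia and 2 for strain by sex. The stricter filter (461) and median ratio scaling (174) moved sex by hyperoxia, quantile normalization moved ATG in C57B in hyperoxia (304), and strain by sex had 5 with a pseudocount of 0.1 and 2 with eBayes without trend.

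With 1 mouse left out, the range was 2 to 284 for ATG in room air, 530 to 1247 for ATG in hyperoxia, 243 to 1093 for ATG by air, 1306 to 4021 for strain, 20 to 3640 for sex and 0 to 2741 for strain by sex in saline room air, 43 to 2368 for sex by hyperoxia, 284 to 982 and 0 to 1217 for ATG in C3H and C57B in hyperoxia and 119 to 790 for strain by ATG. The highest counts for ATG in room air, ATG by air, strain, sex, strain by sex and sex by hyperoxia were all reached without mouse 2. Median ratio scaling also moved the split of higher and lower calls by over 10 percentage points, from 4633 and 2360 to 3302 and 3586 for hyperoxia in C3H, from 2252 and 742 to 1306 and 1561 for strain by hyperoxia, from 3099 and 2184 to 2657 and 2937 for strain in hyperoxia, from 244 and 62 to 69 and 105 for sex by hyperoxia, from 37 and 67 to 37 and 38 for sex, from 265 and 205 to 177 and 363 for ATG by air, and from 295 and 195 to 229 and 285 and from 319 and 138 to 153 and 250 for ATG in C3H and C57B in hyperoxia. The split also moved for ATG in hyperoxia, from 671 and 243 to 276 and 456. For strain in saline room air it moved from 609 and 1223 to 929 and 1008. Quantile normalization moved the split by over 10 percentage points in all of these too, except strain in hyperoxia. The median r between members was 0.30 over 48 lungs, 0.45 for deviations from the group means and 0.31 with median ratio scaling.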
